A study of Mus musculus with 4 samples.

Results

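The genes described here are 9 genes by which plasma cells, the antibody factories derived from B cells, are known: *Jchain*, *Prdm1*, *Xbp1*, *Irf4*, *Sdc1*, *Mzb1*, *Slamf7*, *Cd38*, and *Pou2af1*. They were taken by gene name from the 55401 genes of the deposited tables, where each name occurred once, and all 9 passed the expression filter that left 19806 genes for testing. The libraries were made from CD45+ cells (CD45 marks leukocytes) sorted from the dura mater of wild-type male C57BL/6J mice, which had received an AAV9 vector into the cisterna magna at 4 wk of age. The vector was AAV-mVEGF-C (labeled AAV-VEGF-C), which encodes full-length mouse VEGF-C, or AAV-CTRL (labeled AAV-Control), which encodes a soluble part of VEGFR-3 without VEGF-C binding, joined to an immunoglobulin tail, so the control mice also carried a vector and its product. Each group had 2 libraries, numbered by experiment. The methods give 10 to 12 mice for each AAV-treated group, with meninges pooled for the sort, so each library is treated as 1 pool and an SD here is the spread between pools. The question was how VEGF-C changes the dural immune cells. All dural leukocytes were sorted together, so fewer cells of a type and less RNA per cell cannot be told apart in these values.

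A B cell becomes a plasma cell when IRF4 and BLIMP1, the product of *Prdm1*, shut down the B cell program, and XBP1 enlarges the endoplasmic reticulum for antibody secretion. The J chain and MZB1 take part in assembling the antibodies, and syndecan-1 (CD138, from *Sdc1*), SLAMF7, and CD38 sit on the cell surface. Most of these genes are not exclusive to plasma cells: *Irf4*, *Pou2af1*, *Mzb1*, and *Cd38* are also used by B cells, *Prdm1* and *Irf4* by T cells, *Slamf7* and *Cd38* by several kinds of leukocyte, *Mzb1* and *Irf4* by dendritic cell subsets, and *Sdc1* by epithelial cells. IgA-secreting plasma cells are known to reside in the dura along its venous sinuses.

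The 9 genes fell into 3 patterns, a grouping made after their values were seen. *Jchain*, *Mzb1*, *Prdm1*, and *Sdc1* were higher in CPM (reads scaled to the size of the library) in both AAV-mVEGF-C libraries than in both controls. The same held for 16.7% of all genes tested. In mean CPM *Jchain* was higher by 2.55-fold and the others by 1.44- to 1.76-fold. *Xbp1* and *Slamf7* lay within 1.14-fold between the group means, though *Xbp1* too was higher in both AAV-mVEGF-C libraries than in both controls. *Pou2af1*, *Irf4*, and *Cd38* were highest in AAV-CTRL 2 and lowest in AAV-CTRL 1, with both AAV-mVEGF-C libraries in between. None of the 9 passed an adjusted p of 0.05 in the quasi-likelihood test of edgeR, in which 0% of all genes tested did, and 3 of the 9 (*Jchain*, *Prdm1*, and *Sdc1*) had an unadjusted p under 0.05 and a higher level, against 1.46% of all genes tested. DESeq2 gave 1 of the 9, *Jchain*, an adjusted p under 0.05 with a higher level, against 0.315% of genes, and 0 of the 9 with a lower level, against 0.0630%.

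**Figure D1:**
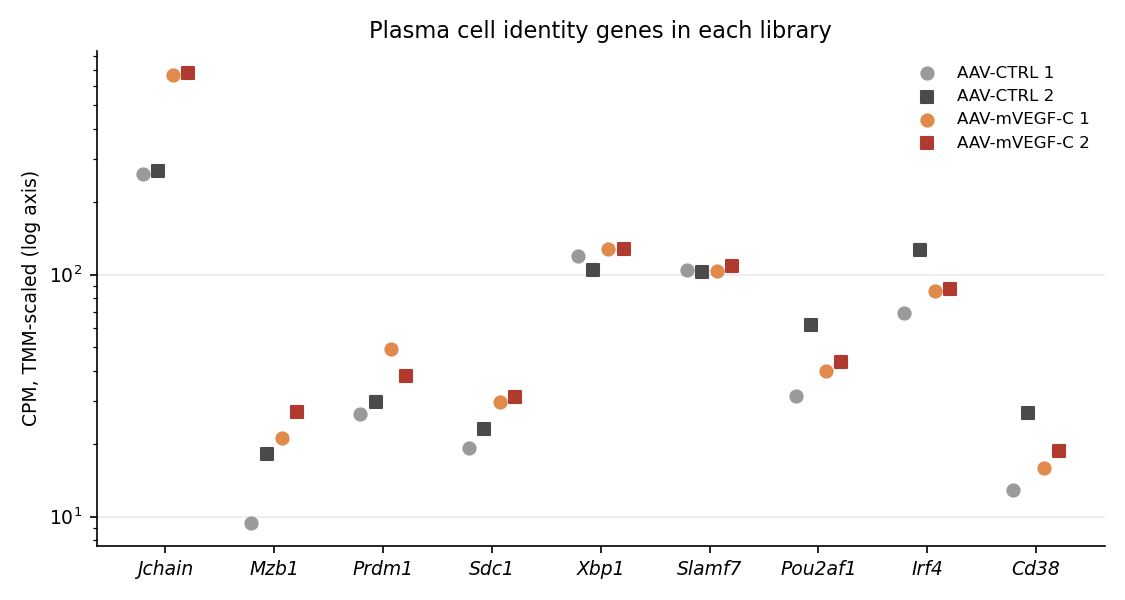
Level of each of the 9 genes in the 4 libraries, in CPM scaled by TMM on a log axis, with 1 point per library. The *Jchain* points split into a control pair near 265 CPM and an AAV-mVEGF-C pair near 675 CPM, while for *Pou2af1*, *Irf4*, and *Cd38* the 2 controls are the outermost points.

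Promoter sequences of RefSeq (GRCm38.p6) are shown for *Jchain* and *Prdm1*, which encode a secreted chain and a regulator that were both higher after AAV-mVEGF-C, and for *Pou2af1*, which was not. Each is the 250 bases before the RefSeq start site, 5′ to 3′ on the strand of the gene. They lie at chr5:88527898-88528147 (minus strand), chr10:44458749-44458998 (minus strand, inside the annotated span of *Prdm1*, which has longer transcripts), and chr9:51213440-51213689 (plus strand). Capitals mark a match to TGACGTG, the core bound by XBP1 and ATF6.
Jchain: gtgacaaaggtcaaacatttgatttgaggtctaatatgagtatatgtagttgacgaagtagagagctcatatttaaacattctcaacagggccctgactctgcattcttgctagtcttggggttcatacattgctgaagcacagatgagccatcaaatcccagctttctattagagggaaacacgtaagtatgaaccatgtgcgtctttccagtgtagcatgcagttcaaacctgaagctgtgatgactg
Prdm1: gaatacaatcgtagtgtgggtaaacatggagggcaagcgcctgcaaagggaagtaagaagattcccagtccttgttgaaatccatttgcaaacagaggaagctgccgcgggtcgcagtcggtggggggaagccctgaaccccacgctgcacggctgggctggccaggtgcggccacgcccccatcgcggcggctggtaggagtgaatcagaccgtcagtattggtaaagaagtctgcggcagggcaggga
Pou2af1: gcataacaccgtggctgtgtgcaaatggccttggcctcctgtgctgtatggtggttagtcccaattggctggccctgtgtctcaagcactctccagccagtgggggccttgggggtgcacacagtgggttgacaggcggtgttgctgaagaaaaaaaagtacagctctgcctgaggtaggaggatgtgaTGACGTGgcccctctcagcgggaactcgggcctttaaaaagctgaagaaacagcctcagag

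Both strands of these 250-base windows were searched for TGACGTG, for the octamer ATGCAAAT, which is bound by the octamer factors that the *Pou2af1* product joins, and for GTGAAAG, a core bound by BLIMP1. Of the 9 genes, 8 had a promoter in the table. TGACGTG occurred in 1 of the 8, *Pou2af1*, where it began 61 bases before the start site, and in 1.65% of all 32851 promoters. ATGCAAAT occurred in 0 of the 8 and in 1.60% of all promoters, and GTGAAAG in 0 of the 8 and in 3.57%. No motif of the 3 was shared by the promoters printed above, and a match or its absence in this window says nothing on binding.

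Levels can be compared between genes only per length, for which the deposited TPM (transcript abundances scaled by gene length and library) were used. *Jchain* was the most abundant of the 9 in each library, at 164 and 186 TPM in AAV-CTRL 1 and 2 and 405 and 413 TPM in AAV-mVEGF-C 1 and 2. By TPM it ranked 440 and 396 among all genes of the control libraries, and 178 and 186 in the AAV-mVEGF-C libraries. *Xbp1* came next with 51.0 to 56.1 TPM, and *Slamf7* followed with 35.8 to 42.8 TPM, and neither range overlapped that of another member. *Mzb1* (9.12 to 24.5 TPM), *Irf4* (10.5 to 21.6 TPM), and *Pou2af1* (9.36 to 20.9 TPM) overlapped over the 4 libraries. Within each library *Irf4* lay above *Pou2af1*, though only by 12.7 against 12.6 TPM in AAV-mVEGF-C 2. *Mzb1* was the lowest of the 3 in both controls and the highest in both AAV-mVEGF-C libraries. *Prdm1* (4.58 to 9.10 TPM), *Sdc1* (5.32 to 7.67 TPM), and *Cd38* (3.02 to 7.99 TPM) overlapped as well, at lower levels.

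**Figure D2:**
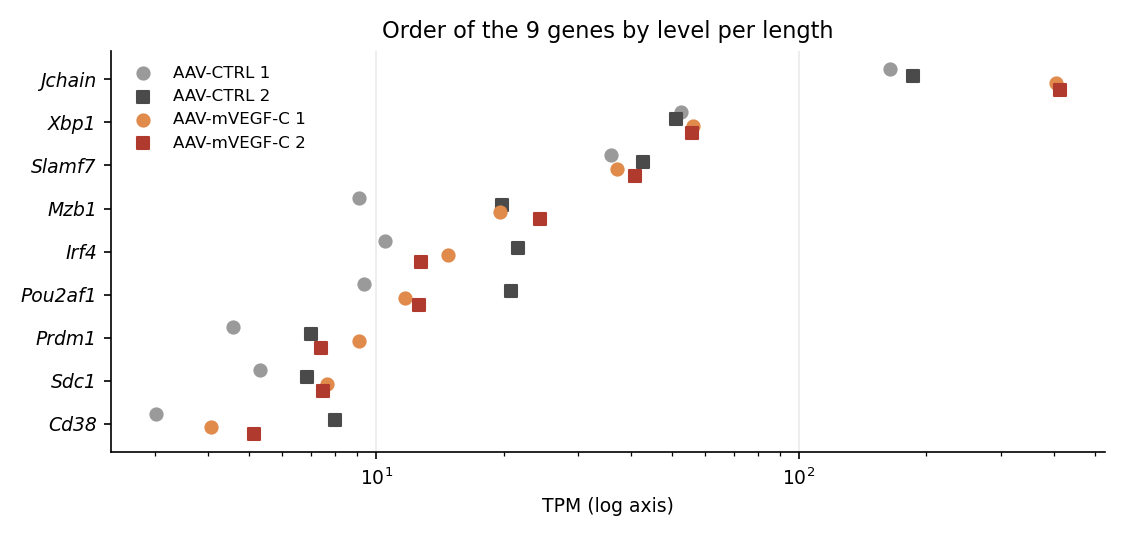
The 9 genes ordered by their mean TPM (log axis), with 1 point per library. *Jchain* stands at 164 to 413 TPM, *Xbp1* and *Slamf7* form separate ranges between 35.8 and 56.1 TPM, and the other 6 form 2 blocks of overlapping ranges, *Mzb1*, *Irf4*, and *Pou2af1* from 9.12 to 24.5 TPM and *Prdm1*, *Sdc1*, and *Cd38* from 3.02 to 9.10 TPM.

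*Jchain* encodes the small chain that links IgA and IgM into polymers (ENSMUSG00000067149.6, GRCm38 chromosome 5, 88519809 to 88527891, minus strand), and no other annotated gene overlaps it. It had 261 and 268 CPM in AAV-CTRL 1 and 2, and 670 and 679 CPM in AAV-mVEGF-C 1 and 2. The libraries of a group lay close together and the groups far apart, 265 ± 5.16 CPM (SD, n = 2) against 675 ± 6.41 CPM. On the log2 scale the difference was 1.35 ± 0.16 (fitted log2 fold change ± SE, here and for the genes that follow), and the adjusted p was 0.331 in edgeR and 7.7e-15 in DESeq2. It stayed between 1.33 and 1.37 when any one library was left out. In edgeR the adjusted p was then 0.0063 without AAV-CTRL 1 and 0.0066 without AAV-CTRL 2, fits in which 212 and 1798 genes passed, and 0.881 and 0.929 without AAV-mVEGF-C 1 and 2.

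The level of *Jchain* went with that of *Igha*, the constant gene of IgA. There were 59.8 and 56.8 *Jchain* reads per 100 *Igha* reads in the control pair, against 58.6 and 55.9 in the AAV-mVEGF-C pair. The means were 58.3 ± 2.12 (SD, n = 2) and 57.3 ± 1.96, and the groups overlapped (exact two-sided permutation test, p = 0.667), a ratio looked at after its parts had been seen. Per 100 reads of all 8 heavy constant genes, *Jchain* had 16.7 and 9.09 reads in the control pair against 11.05 and 10.6 reads in the AAV-mVEGF-C pair (12.9 ± 5.37 against 10.8 ± 0.328, SD, n = 2, exact two-sided permutation test, p = 1, where the smallest p that 2 pools against 2 allow is 0.333). Here the AAV-mVEGF-C libraries fell between the controls, and the difference of −2.07 turned to 1.73 without AAV-CTRL 1. Per 100 reads of *Igha* and *Ighm* together, the classes that carry a J chain, AAV-CTRL 1 had 20.9, AAV-CTRL 2 had 10.5, and the AAV-mVEGF-C pair had 21.7 and 20.1, so AAV-CTRL 2 stood apart from the other 3 libraries. *Ighm* itself, which B cells also transcribe, was at 811 and 2087 CPM in the controls and 1944 and 2166 CPM in AAV-mVEGF-C.

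The 5 genes whose levels over the 4 libraries were most like those of *Jchain* were *Igha*, *Ighv3-6*, *Slpi*, *Igkc*, and *Igkv10-96*. Likeness was the distance between log2(CPM + 1) values centered on the gene's mean, among 9331 genes with a mean of at least 10 CPM. The distance was 0.0767 for *Igha* and 0.299 to 0.475 for the other 4. *Slpi*, which encodes a protease inhibitor, is the only one of them that is no immunoglobulin gene. Among the other members, *Prdm1* came in place 52, *Mzb1* in place 62, and *Sdc1* in place 78, while *Xbp1* came in place 1093 and the others in places 3011 to 7535.

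**Figure D3:**
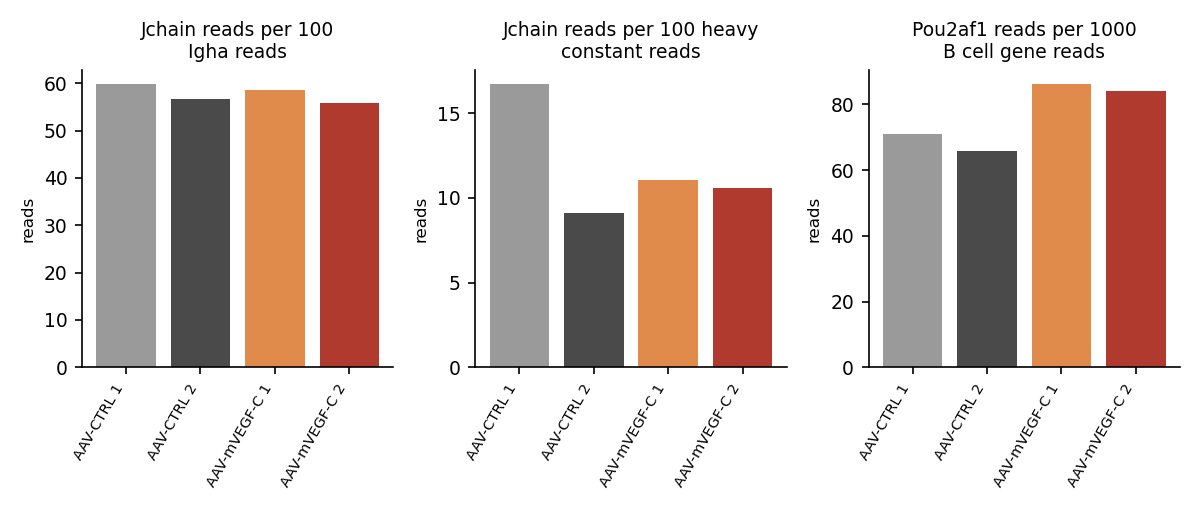
Bars give the reads of *Jchain* per 100 *Igha* reads, of *Jchain* per 100 reads of the 8 heavy constant genes, and of *Pou2af1* per 1000 reads of 14 B cell genes in each library. The first ratio keeps to 55.9 to 59.8 in all 4 libraries, and the second is highest in AAV-CTRL 1 at 16.7. The third is 71.0 and 66.0 in the control pair against 86.1 and 84.2 in the AAV-mVEGF-C pair. On that scale, added after the values were seen, 30.0% of all genes tested were higher in both AAV-mVEGF-C libraries than in both controls. In CPM the groups overlapped for *Pou2af1*.

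*Prdm1* encodes BLIMP1, the repressor that ends the B cell program (ENSMUSG00000038151.13, chromosome 10, 44437177 to 44528501, minus strand). It had 26.4 and 29.8 CPM in AAV-CTRL 1 and 2, and 49.3 and 38.2 CPM in AAV-mVEGF-C 1 and 2. Both AAV-mVEGF-C libraries were above both controls, with a wider spread between them (28.1 ± 2.39 against 43.7 ± 7.79 CPM, SD, n = 2). This was a difference of 0.64 ± 0.20 (SE) on the log2 scale, where edgeR gave an unadjusted p of 0.0178 and an adjusted p of 0.999, and it ranged from 0.45 to 0.81 when single libraries were left out. *Prdm1* is also expressed by effector and regulatory T cells. Of 8 T cell markers, 7 had a higher mean after AAV-mVEGF-C and 2 had an unadjusted p under 0.05 with a higher level, where 9983 of 19806 and 1.46% of all genes tested did. Their summed level was 293 and 256 CPM in the controls and 337 and 315 CPM in AAV-mVEGF-C. No marker of that list was at 0, and its part in the *Prdm1* result was not tested.

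*Sdc1* encodes syndecan-1, the surface proteoglycan by which plasma cells are commonly sorted (ENSMUSG00000020592.14, chromosome 12, 8771323 to 8793715, plus strand). It had 19.2 and 23.0 CPM in AAV-CTRL 1 and 2, and 29.6 and 31.3 CPM in AAV-mVEGF-C 1 and 2. The groups did not overlap, at 21.1 ± 2.65 and 30.5 ± 1.17 CPM (SD, n = 2). In edgeR the difference was 0.53 ± 0.19 (SE) on the log2 scale (unadjusted p = 0.0292, adjusted p = 0.999), and it was 0.41 without AAV-CTRL 1 (adjusted p = 0.584) and 0.66 without AAV-CTRL 2 (adjusted p = 0.048, in a fit where 1798 of all genes passed). On TPM, limma put it at 0.28 with a pseudocount of 1 and 0.32 with 0.1. Epithelial cells, which a CD45+ sort should remove, also carry syndecan-1. The epithelial markers *Epcam*, *Krt8*, *Krt18*, and *Krt19* summed to 6.59 and 6.82 CPM in the controls and 5.21 and 6.49 CPM in AAV-mVEGF-C, with *Krt19* at 0 in AAV-CTRL 1, and their part in the *Sdc1* result was not tested.

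*Mzb1* encodes an endoplasmic reticulum protein that helps to assemble and secrete IgM (ENSMUSG00000024353.5, chromosome 18, 35647267 to 35649367, minus strand). It had 9.39 and 18.1 CPM in AAV-CTRL 1 and 2, and 21.2 and 27.1 CPM in AAV-mVEGF-C 1 and 2. AAV-CTRL 2 was nearer to AAV-mVEGF-C 1 than to AAV-CTRL 1, and in TPM it lay above it, at 19.8 against 19.7. The means were 13.7 ± 6.13 and 24.2 ± 4.21 CPM (SD, n = 2), or 0.82 ± 0.34 (SE) on the log2 scale (edgeR, adjusted p = 0.999). It was 0.42 without AAV-CTRL 1 (adjusted p = 0.707) and 1.36 without AAV-CTRL 2 (adjusted p = 0.0139), so its size depended on which control was used. Of its 1215 exon bases, 695 are shared with *Spata24* on the same strand, so reads could be divided between the 2 genes. *Spata24* had 2.82 and 2.00 CPM in the controls and 1.76 and 1.83 CPM in AAV-mVEGF-C.

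*Xbp1* encodes the transcription factor that drives the secretory expansion of plasma cells and is used by many cell types (ENSMUSG00000020484.19, chromosome 11, 5520659 to 5525893, plus strand). It had 119 and 105 CPM in AAV-CTRL 1 and 2, and 128 and 127 CPM in AAV-mVEGF-C 1 and 2. Both AAV-mVEGF-C libraries were above both controls, but the gap to AAV-CTRL 1 was smaller than the gap between the controls (112 ± 10.1 against 128 ± 0.468 CPM, SD, n = 2). Fitted by edgeR, this was 0.19 ± 0.15 (SE) on the log2 scale (adjusted p = 0.999), 0.28 without AAV-CTRL 1 and 0.097 without AAV-CTRL 2. The active form of XBP1 is made by a splicing step in its mRNA that counts per gene do not show.

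*Slamf7*, a surface receptor of plasma cells that natural killer cells and macrophages also carry (ENSMUSG00000038179.13, chromosome 1, 171632403 to 171653035, minus strand), had the most even level of the 9 in CPM, while in TPM *Xbp1* had the narrower range. It had 104 and 103 CPM in AAV-CTRL 1 and 2, and 104 and 108 CPM in AAV-mVEGF-C 1 and 2, and the groups overlapped. Fitted by edgeR, the log2 difference was 0.033 ± 0.14 (SE), with an adjusted p of 0.999. Some of its exon bases are shared with an antisense gene, *Gm37787*, and whether the counting used strand is not given in the sources used here.

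*Pou2af1* encodes a coactivator of octamer-binding factors at immunoglobulin promoters and is active in B cells and plasma cells (ENSMUSG00000032053.8, chromosome 9, 51213708 to 51240080, plus strand). It had 31.4 and 61.9 CPM in AAV-CTRL 1 and 2, and 39.9 and 43.6 CPM in AAV-mVEGF-C 1 and 2. The controls differed from each other by more than the group means did (46.6 ± 21.6 against 41.7 ± 2.57 CPM, SD, n = 2). The log2 difference of −0.16 ± 0.32 (SE, edgeR, adjusted p = 0.999) became −0.57 without AAV-CTRL 1 and 0.41 without AAV-CTRL 2.

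*Irf4*, the regulator needed to start and keep the plasma cell state (ENSMUSG00000021356.10, chromosome 13, 30749226 to 30766976, plus strand), had 69.1 and 127 CPM in AAV-CTRL 1 and 2, and 85.6 and 87.4 CPM in AAV-mVEGF-C 1 and 2. The log2 difference was −0.18 ± 0.29 (SE, edgeR, adjusted p = 0.999), and it became −0.55 without AAV-CTRL 1 and 0.32 without AAV-CTRL 2. *Cd38*, an ectoenzyme that consumes NAD (ENSMUSG00000029084.5, chromosome 5, 43868553 to 43912375, plus strand), had 12.9 and 26.7 CPM in the controls and 15.8 and 18.7 CPM in AAV-mVEGF-C. For it the log2 difference was −0.20 ± 0.36 (SE, edgeR, adjusted p = 0.999), and it became −0.63 without AAV-CTRL 1 and 0.42 without AAV-CTRL 2. For all 3 genes the direction was thus set by which control library was used. A gene was highest in AAV-CTRL 2 in 24.8% of all genes tested, so 3 of the 9 is near that share.

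Though *Ighm* was highest in AAV-mVEGF-C 2, the summed level of B cell surface and signaling genes was highest in AAV-CTRL 2. All 14 B cell surface and signaling genes were highest in it, among them *Cd79a* of the B cell receptor, with 68.5 and 176 CPM in the controls and 65.9 and 78.3 CPM in AAV-mVEGF-C. *Ms4a1*, which encodes CD20, had 52.8 and 107 CPM in the controls and 46.9 and 43.8 CPM in AAV-mVEGF-C. *Cd72* had 43.6 and 92.0 CPM in the controls and 50.2 and 64.2 CPM in AAV-mVEGF-C. The adaptor gene *Bank1* had 43.9 and 72.9 CPM in the controls and 48.4 and 49.1 CPM in AAV-mVEGF-C. The list summed to 442 and 938 CPM in AAV-CTRL 1 and 2, and 464 and 517 CPM in AAV-mVEGF-C 1 and 2. Its median log2 fold change was −0.35, with 13 of 14 genes lower and 1 (*Ms4a1*) with an unadjusted p under 0.05 and a lower level, as 1.18% of all genes tested had, against a median of 0.0034 over all genes tested. All 9 markers of plasmacytoid dendritic cells were highest in AAV-CTRL 2 too, against 24.8% of all genes tested, and none of them was at 0. They summed to 227 and 459 CPM in the controls and 299 and 331 CPM in AAV-mVEGF-C. Also highest in AAV-CTRL 2 were 9 of 10 macrophage, 6 of 6 fibroblast, 3 of 3 endothelial, and 3 of 4 erythroid markers. Of the T cell, neutrophil, and mast cell markers 0 were. The part of any of these cell types in the levels of *Pou2af1*, *Irf4*, *Cd38*, and *Mzb1* was not tested.

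**Figure D4:**
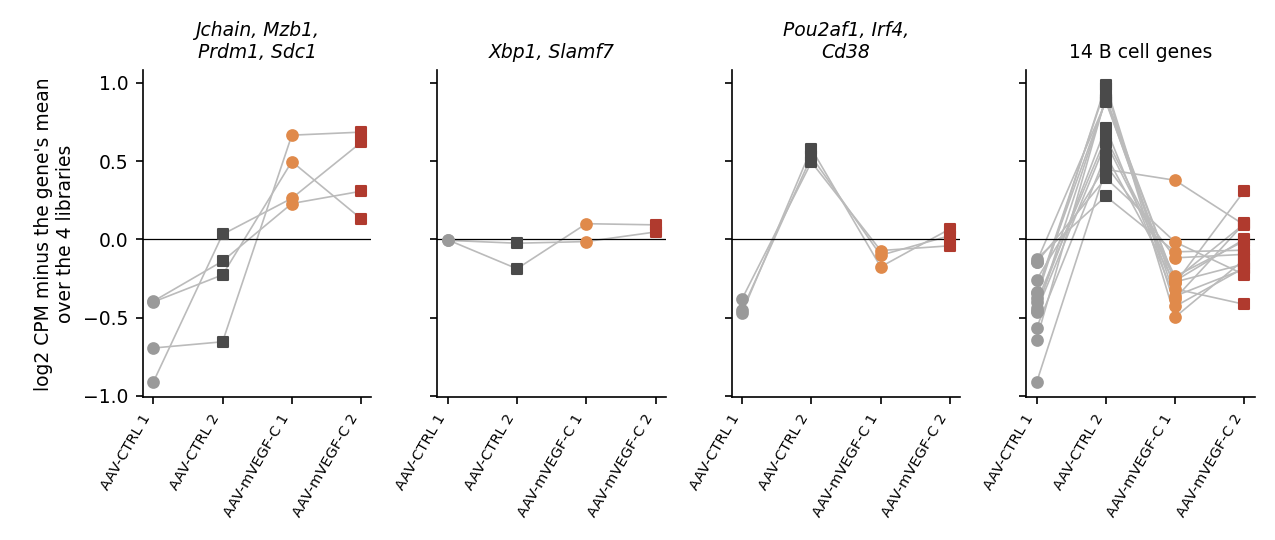
Log2 CPM of each gene minus its mean over the 4 libraries, with lines joining the values of 1 gene, for the 3 patterns of plasma cell genes and for the 14 B cell genes. *Pou2af1*, *Irf4*, and *Cd38* peak in AAV-CTRL 2, as do all 14 B cell genes. *Jchain*, *Mzb1*, *Prdm1*, *Sdc1*, and *Xbp1* lie higher in both AAV-mVEGF-C libraries than in both controls.

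The members were also set against the B cell genes of the same library, a scale added after the values were seen. It divides every gene by the same sum, which was highest in AAV-CTRL 2, and on it 30.0% of all genes tested had both AAV-mVEGF-C values above the 2 control values, against 16.7% in CPM. Of the 9 members, 7 did. *Pou2af1* had 71.0 and 66.0 reads per 1000 reads of the 14 B cell genes in the control pair, against 86.1 and 84.2 in the AAV-mVEGF-C pair. *Cd38* had 29.2 and 28.5, against 34.1 and 36.2. *Irf4* had 156 and 135, against 184 and 169. In ratio, the 2 controls lay closer together on this scale than in CPM for *Pou2af1*, *Cd38*, *Irf4*, and *Mzb1*, and farther apart for the other 5. That split was fixed by the CPM values, because the divisor summed to 442 CPM in AAV-CTRL 1 and 938 CPM in AAV-CTRL 2. The cell source of these genes was not tested. *Mzb1* had 21.2 and 19.2, against 45.7 and 52.5. *Jchain* had 591 and 286, against 1445 and 1313, *Prdm1* had 59.8 and 31.8, against 106 and 73.9, and *Sdc1* had 43.5 and 24.5, against 63.9 and 60.5. *Slamf7* (236 and 110, against 224 and 209) and *Xbp1* (270 and 112, against 276 and 246) overlapped between groups. With 2 pools against 2, the exact permutation test cannot go below 0.333 for any of these ratios.

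Over the 9 genes, 6 had a positive and 3 a negative log2 fold change, with a median of 0.19. Of the 19806 genes tested, 9983 had a positive value, with a median of 0.0034. Both AAV-mVEGF-C libraries were above both controls in CPM for 5 of the 9 (*Jchain*, *Prdm1*, *Sdc1*, *Mzb1*, and *Xbp1*), against 16.7% of all genes tested. In TPM this held for 4 of the 9, without *Mzb1*, against 8.92%. With AAV-CTRL 1 left out it held for 6 of the 9 against 32.0%, and with AAV-CTRL 2 left out for 8 of the 9 against 44.4%.

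The other genes of the plasma cell program followed in part. In a list of 25 such genes, all tested, 21 had a positive log2 fold change and 4 a negative one, with a median of 0.18, against 0.0034 over all genes tested. None had an adjusted p under 0.05 in edgeR or DESeq2, and 5 had an unadjusted p under 0.05 in edgeR, all 5 with a higher level, against 1.46% of all genes tested. *Ell2*, an elongation factor that promotes the secreted form of immunoglobulin mRNA, had 61.2 and 62.7 CPM in AAV-CTRL 1 and 2, and 84.0 and 96.8 CPM in AAV-mVEGF-C 1 and 2 (log2 fold change 0.55, standard error 0.16). *Tent5c*, a poly(A) polymerase that acts on immunoglobulin mRNA, had 76.7 and 78.7 CPM in the controls and 101 and 124 CPM in AAV-mVEGF-C (0.54, standard error 0.17). *Txndc5*, a disulfide isomerase of the endoplasmic reticulum, had 80.7 and 99.6 CPM in the controls and 124 and 121 CPM in AAV-mVEGF-C (0.44, standard error 0.17). *Trp53inp1* and *Tram2* had log2 fold changes of 0.55 and 0.45 (SE 0.19 and 0.17). In the list 11 of 25 genes, these 5 among them, had both AAV-mVEGF-C values above the 2 control values, against 16.7% of all genes tested. The adjusted p was 0.999 for each of the 5 in edgeR.

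The 2 largest log2 fold changes of the list belonged to genes of low level, named here after their values were seen. *Derl3*, a factor of protein disposal in the endoplasmic reticulum, had 0.0447 and 1.60 CPM in the controls and 5.92 and 4.57 CPM in AAV-mVEGF-C, or 2.70 ± 1.23 (SE, edgeR, adjusted p = 0.999) on the log2 scale. *Tnfrsf17*, which encodes the survival receptor BCMA, had 0.179 and 0.813 CPM in the controls and 1.23 and 1.55 CPM in AAV-mVEGF-C. It rested on 8 to 49 reads per library, with a log2 fold change of 1.49 ± 0.96 (SE, edgeR, adjusted p = 0.999). *Manf* had 81.2 and 61.1 CPM in the controls and 56.8 and 58.0 CPM in AAV-mVEGF-C. In CPM it was the 1 gene of the list with both AAV-mVEGF-C libraries below both controls, as 15.2% of all genes tested were. In TPM 3 genes of the list were, against 28.5% of all genes tested. *Hsp90b1*, a chaperone of the endoplasmic reticulum in many cell types, had 711 and 659 CPM in the controls and 758 and 715 CPM in AAV-mVEGF-C, or 0.11 ± 0.16 (SE) on the log2 scale.

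**Figure D5:**
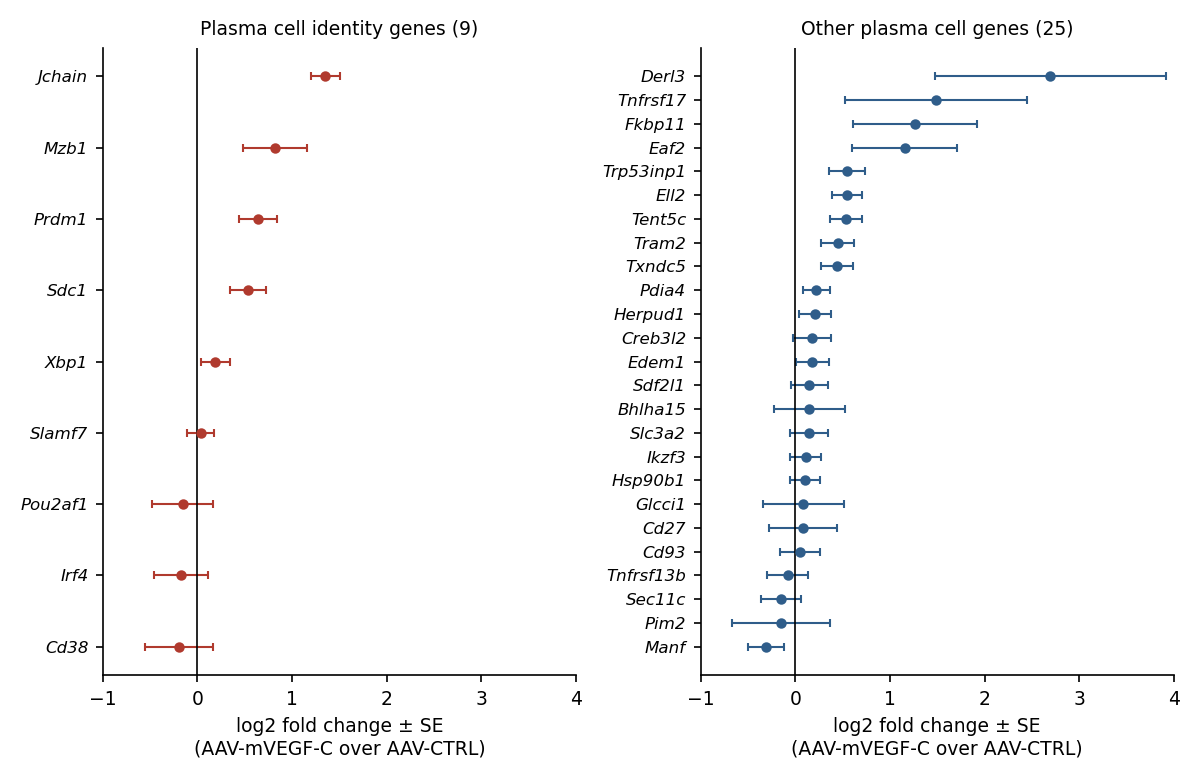
Log2 fold changes of AAV-mVEGF-C over AAV-CTRL with their standard errors, for the 9 plasma cell identity genes and for 25 other plasma cell genes. *Jchain* stands at 1.35 ± 0.16, and *Derl3* has the largest value of the other list, 2.70, with a standard error of 1.23.

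The regulators that BLIMP1 is known to silence, or that hold the B cell state, were described by 12 genes. The 4 most abundant were *Ets1*, *Irf8*, *Spi1*, and *Ciita*, which other leukocytes use too, and their log2 fold changes were 0.10, −0.11, 0.0026, and 0.087. Over the list, 8 genes had a negative value and 4 a positive one, with a median of −0.18. In AAV-CTRL 2, 8 of the 12 were highest, against 24.8% of all genes tested. *Id3* (13.4 and 15.5 CPM in the controls, 6.77 and 9.77 CPM in AAV-mVEGF-C) and *Ebf1* (37.1 and 74.6, 31.8 and 27.5 CPM) had an unadjusted p under 0.05, with lower levels (2 of 12, against 1.18% of all genes tested), and were named for that after their values were seen. Their adjusted p was 0.999 in edgeR.

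The dividing precursors of plasma cells express cell cycle genes, as do other dividing leukocytes. Of 12 cell cycle genes, 3 had a positive and 9 a negative log2 fold change, with a median of −0.30, and 0 had an unadjusted p under 0.05 in edgeR. Their sum was highest in AAV-CTRL 1, at 1738 CPM, against 1098 CPM in AAV-CTRL 2 and 1453 and 1228 CPM in AAV-mVEGF-C 1 and 2, so it did not separate the groups.

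The libraries held 32520709 to 46409700 reads assigned to genes, and reads per member ran from 420 for *Mzb1* in AAV-CTRL 1 to 26250 for *Jchain* in AAV-mVEGF-C 1. AAV-CTRL 1 had the most reads and the fewest genes with any read, 20993, against 29230 to 37535 in the other libraries. Markers of leukocytes (*Ptprc*, which encodes CD45, *Cd52*, *Coro1a*, and *Laptm5*) summed to 2676 to 3009 CPM in all 4 libraries. Fibroblast markers, which CD45+ cells should lack, summed to 653 and 1041 CPM in the controls and 353 and 549 CPM in AAV-mVEGF-C. The mean of each of the 6 was lower after AAV-mVEGF-C, 4 with an unadjusted p under 0.05 in edgeR, against 1.18% of all genes tested. The part of these cells in the results was not tested.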

How the data were processed

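The authors deposited estimated counts with no normalization (8.18% of the values were fractional), which were rounded here. TPM values of the same 55401 genes were deposited by the authors and used as they are. The submitters' processing notes name FastQC, Trimmomatic, DRAGEN, and Picard and the build mm10, without roles or versions, and the annotation is not given in the sources used here. The library kit keeps strand, and whether counting used it is not given either.

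Groups were compared with edgeR 4.0.16 under R 4.3.3, by its quasi-likelihood F test (TMM scaling, filterByExpr, 19806 genes, all 4 libraries, no covariate, Benjamini-Hochberg over all genes tested, threshold 0.05). The standard error is the log2 fold change divided by the square root of F. CPM are on TMM-scaled library totals. Alternatives were DESeq2 1.42.0 (the tool of the study), limma 3.58.1 on log2(TPM + 1) and log2(TPM + 0.1), RLE in place of TMM, totals that leave out the 395 immunoglobulin genes (171 tested), no filter, at least 10 reads in every library, a replicate block, and each library left out in turn. Gene positions were read from GENCODE M21 (GRCm38), matched by gene identifier (*Xbp1* in another version).

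The members and gene lists were chosen with earlier results of these data known. The genes named are the 9 members, *Igha*, *Ighm*, cell type markers, the 5 genes most like *Jchain*, and genes of 3 lists. Those lists are other plasma cell genes, B cell regulators, and B cell surface and signaling genes. From each list the genes with an unadjusted p under 0.05 were named. Where fewer than 4 of a list had one, its 4 genes with the highest mean CPM were named instead, a ranking that ignores gene length. *Derl3*, *Tnfrsf17*, *Manf*, *Hsp90b1*, *Id3*, *Ebf1*, and the neighboring genes *Spata24* and *Gm37787* fall outside this rule and were named after their values were seen. The labels number the libraries by experiment and say nothing more of how they differ, so p-values measure only the spread between these libraries, which may be technical.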

Additional observations from a re-analysis of the deposited data

How the results depend on the processing

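Of the 9 members, 0 passed an adjusted p of 0.05 in edgeR, with 3 below 0.05 before adjustment. The count was also 0 under RLE scaling (4 before adjustment), with immunoglobulin genes left out of the totals (3), with a minimum of 10 reads in each library (4), and on TPM plus 1 (1) or plus 0.1 (1). *Jchain* alone passed, for a count of 1, in DESeq2, without a filter, and in the crossed replicate block, and 0 to 3 members passed when single libraries were left out, the 3 being *Jchain*, *Sdc1*, and *Mzb1* without AAV-CTRL 2. Over all genes the count was 0 in the main test (523 unadjusted), 72 in DESeq2, 268 without a filter, and 0 to 1798 with single libraries left out, the highest without AAV-CTRL 2. Of the other plasma cell genes 0 passed, 1 (*Derl3*) without a filter, and 0 to 3 with single libraries left out. A fit without a library assumes that the lone library of its group varies like the others. The cause was not tested.

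The labels number the libraries by experiment, while the column labels number them otherwise, and the pairing of pools stays unknown. Deviations of same-numbered libraries from their group means correlated at −0.134 on edgeR's log2 CPM and at −0.0357 on log2(CPM + 1). A replicate block by experiment number let 11 genes and 0 members pass, with an adjusted p of 0.154 for *Jchain* in edgeR. With the numbers crossed, a pairing added after the data had been seen, 54 genes and 1 member passed.

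*Jchain*, *Prdm1*, *Sdc1*, *Mzb1*, and *Xbp1* kept a positive log2 fold change in all 13 alternatives, *Jchain* between 1.22 and 1.37. With single libraries left out, *Irf4* ranged from −0.55 to 0.32, *Cd38* from −0.63 to 0.42, and *Pou2af1* from −0.57 to 0.41, each turning positive without AAV-CTRL 2 alone. *Slamf7* turned to −0.0074 in TPM with either pseudocount, where the median of all genes was −0.078 and −0.11, so it lay above that median. Without a filter the median of all genes was 0.22, above the 0.17 of *Xbp1*, so the positive sign of *Xbp1* there is not a rise relative to the typical gene. The difference in *Jchain* reads per 100 heavy constant reads, −2.07, ranged from −5.87 to 1.73 with single libraries left out. It was −0.98 per 100 reads of all immunoglobulin genes and −3.37 in TPM. In TPM AAV-mVEGF-C 2 (10.49) lay just below AAV-CTRL 2 (10.54), so it was not between the controls there. The 5 members whose groups did not overlap became 6 without AAV-CTRL 1 and 8 without AAV-CTRL 2, and 4 in TPM.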

Other observations

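Markers of further cell types of the dura were read in the same libraries. All 5 mast cell markers had a lower mean after AAV-mVEGF-C, 4 of them with an unadjusted p under 0.05 in edgeR (1.18% of all genes tested were lower at that p), and their sum was 2075 and 1469 CPM in AAV-CTRL 1 and 2 and 1193 and 1269 CPM in AAV-mVEGF-C 1 and 2. Neutrophil markers were uneven between the controls, at 9694 and 4690 CPM, with 6995 and 7740 CPM in AAV-mVEGF-C. All 10 macrophage markers had a lower mean, with sums of 1930 and 2779 CPM in the controls and 1640 and 2394 CPM in AAV-mVEGF-C, which overlapped. Monocyte markers (3148 and 2589 CPM in the controls, 2768 and 3140 CPM in AAV-mVEGF-C) overlapped in sum, while natural killer cell markers were at 140.0 and 140.5 CPM in the controls and 115 and 131 CPM in AAV-mVEGF-C, with 0 of 8 at an unadjusted p under 0.05 in edgeR. Both AAV-mVEGF-C values were below both control values for 4 of these 8 in CPM, against 15.2% of all genes tested, and for 7 of 8 in TPM, against 28.5%.

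Of 8 dendritic cell markers, 7 had a higher mean, and 5 had both AAV-mVEGF-C values above both control values, against 16.7% of all genes tested, though their sum, dominated by *H2-Ab1*, overlapped (3402 and 3181 CPM in the controls, 2938 and 3434 CPM in AAV-mVEGF-C). Erythroid markers summed to 55.9 and 81.8 CPM in the controls and 14.02 and 25.8 CPM in AAV-mVEGF-C. Of the 4, 3 were lower at an unadjusted p under 0.05 in edgeR, against 1.18% of all genes tested, and *Hba-a1* and *Hbb-bs* also had an adjusted p under 0.05 in DESeq2 (0.0019 and 0.00052), against 0.0630%. Endothelial markers summed to 55.5 and 64.7 CPM and 49.4 and 49.1 CPM. None of the markers in these lists was at 0 in all 4 libraries. Their part in the levels of the plasma cell genes was not tested.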
